A study of Mus musculus with 15 samples.

Results

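HMS-I1 testes were compared with MTX testes by RNA sequencing of the whole organ from C57/BL6 mice. The comparison holds 6 of the 15 libraries of the study, 3 labelled HMS-I1 and 3 labelled MTX, chosen by their titles. The other groups were AA, TSA and a group labelled Control, each with 3 libraries, and they are used here only as context. HMS-I1, MTX, AA and TSA are treatment names that the labels leave unexpanded, with no dose, route, duration or age of the animals. The samples titled HMS-I1 replicate 1, 2 and 3 carry distinct treatment names in another label, which end in I1, I2 and I3, so it cannot be told from the labels whether they received one identical agent. Nothing in the labels says that replicates came from separate animals, and the p-values measure the spread between libraries. Genes were kept where the normalised count averaged at least 10 over the 15 libraries, which left 17896 genes.

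The testis keeps adaptive immunity at a distance from its meiotic and post-meiotic germ cells. Leukocytes live in the space between the seminiferous tubules, where macrophages are the most common kind and T and natural killer (NK) cells are normally scarce. Interferon gamma is made mainly by activated T and NK cells. It induces guanylate-binding proteins (GBPs) and immunity-related GTPases (IRGs), which attack the vacuoles of intracellular parasites, and it induces lymphocyte-attracting chemokines and the machinery that presents antigen.

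No gene passed the threshold between HMS-I1 and MTX: limma called 0 of 17896 genes (0.0%) at an adjusted p of 0.05 by the Benjamini-Hochberg method, and 109 genes (0.609%) had an unadjusted p under 0.05, 36 higher and 73 lower in HMS-I1. Blocking on replicate number over the 12 libraries of the treatments also gave 0 calls (0.0%), with 534 genes (2.98%) at an unadjusted p under 0.05. Every statement on single genes below therefore describes the 6 libraries and is not a call. The fitted log2 difference over all genes had a median of -0.01, and 51.6% of genes were lower in HMS-I1.

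Differences of one sign in all replicate numbers were balanced, while the larger ones lay mostly on the lower side. By replicate number, 3006 genes (16.8%) were lower in HMS-I1 in all 3 pairs and 3049 genes (17.0%) were higher. A difference of at least 1 on the log2 scale in every pair was found for 55 genes (0.307%) in the lower direction and for 5 genes (0.0279%) in the higher direction. The 55 genes included leukocyte genes such as Gzma, Cd2, Ptprc, Cd69 and Ccl2 and interferon-inducible genes such as Zbp1, Ifi47 and Gbp8. Many of the 55 were scarce, with 12 of them averaging at least 50 normalised counts and 15 listed at 0 in the first HMS-I1 library. The leukocyte and interferon gene lists described next were drawn up after these genes had been seen, so their direction is not independent of that observation.

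The first replicates differed from the others in both groups. The share of the normalised count from mitochondrial genes was 1.08%, 9.62% and 3.54% in HMS-I1 replicates 1, 2 and 3, against 1.11%, 13.7% and 5.08% in MTX. The mean log2 level of replication-dependent histone genes was 8.51, 3.27 and 3.86 in HMS-I1, against 7.79, 2.98 and 3.72 in MTX. The commonest low value, roughly what 1 read is worth, was 2.53 in HMS-I1 replicate 1 and 2.62 in MTX replicate 1, and between 0.453 and 0.629 in the other HMS-I1 and MTX libraries. The summed value divided by it gives an approximate depth of 12800000, 55900000 and 61300000 reads for HMS-I1 and 11600000, 68900000 and 49200000 reads for MTX. Scarce genes in the first replicates thus rest on a few reads, and their pair difference is the least precise. Libraries with the same number correlated at 0.966 to 0.974 across genes, against 0.878 to 0.948 for libraries of the same group.

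The promoters of 4 interferon-inducible GTPase genes are shown here because this gene family had the lowest list median of all the lists in HMS-I1. They are RefSeq promoters on GRCm38.p6, from 250 bases before to 50 bases after the gene's start. Capitals mark GAAA, any pair of bases and GAAA again, or the reverse complement TTTC, any pair of bases and TTTC. This is the core of the interferon-stimulated response element, where interferon regulatory factors bind. Gbp2 (plus strand, chr3:142620413-142620712) had one match, which begins 59 bases before the start. Gbp3 (plus strand, chr3:142559794-142560093) had a pair of overlapping matches at 45 and 39 bases, Gm12250 (plus strand, chr11:58183593-58183892) had matches at 91 and 46 bases, and Igtp (plus strand, chr11:58199306-58199605) had one at 34 bases.
Gbp2: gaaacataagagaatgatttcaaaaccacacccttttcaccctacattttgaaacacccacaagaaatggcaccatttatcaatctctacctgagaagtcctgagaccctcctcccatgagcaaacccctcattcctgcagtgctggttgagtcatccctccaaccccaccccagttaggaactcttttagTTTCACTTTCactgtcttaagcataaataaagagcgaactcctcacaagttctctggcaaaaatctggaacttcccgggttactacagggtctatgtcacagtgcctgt
Gbp3: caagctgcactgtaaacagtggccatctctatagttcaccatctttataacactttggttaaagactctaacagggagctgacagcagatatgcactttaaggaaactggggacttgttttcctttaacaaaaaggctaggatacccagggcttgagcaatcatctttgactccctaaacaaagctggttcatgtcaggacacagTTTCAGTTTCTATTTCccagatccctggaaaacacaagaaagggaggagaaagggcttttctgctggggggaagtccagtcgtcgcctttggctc
Gm12250: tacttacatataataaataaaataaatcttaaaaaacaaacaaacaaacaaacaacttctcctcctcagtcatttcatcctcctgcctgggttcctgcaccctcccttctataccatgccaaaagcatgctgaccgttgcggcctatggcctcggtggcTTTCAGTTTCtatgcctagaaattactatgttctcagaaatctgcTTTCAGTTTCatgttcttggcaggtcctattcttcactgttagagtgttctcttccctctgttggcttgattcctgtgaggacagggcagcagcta
Igtp: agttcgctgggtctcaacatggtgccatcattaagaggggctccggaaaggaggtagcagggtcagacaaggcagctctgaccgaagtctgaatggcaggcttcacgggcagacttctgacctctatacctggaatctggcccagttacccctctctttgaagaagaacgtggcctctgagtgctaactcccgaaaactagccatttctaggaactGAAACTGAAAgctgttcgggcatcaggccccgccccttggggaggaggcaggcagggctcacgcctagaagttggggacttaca

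The motif was searched on both strands, and overlapping matches counted once per promoter. Of the 21 GTPase genes tested, 12 had a promoter entry, and the promoters of 11 of these 12 genes held the motif. Of all 32851 promoters, 3.44% held it. It was found in the promoters of 7 of 16 interferon-gamma induced chemokine and sensor genes with an entry, 2 of 15 antigen processing genes, 2 of 10 cytotoxic effector genes (Eomes and Gzma), 0 of 11 T cell receptor and co-receptor genes and 0 of 13 NK receptor genes. A match is a description of these letters and says nothing of occupancy in the testis.

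All 21 tested interferon-gamma inducible GTPase genes had a lower fitted value in HMS-I1 than in MTX, with a median log2 difference of -1.81, against -0.01 over all genes. The list median was -0.47 in the replicate 1 pair, -2.02 in the replicate 2 pair and -2.65 in the replicate 3 pair. Of the 21, 18 were lower in all 3 pairs, against 16.8% of all genes, and 5 had every HMS-I1 library below every MTX library, against 1.45% of all genes. Without the 5 members that belong to the 55 genes above, 16 of the remaining 16 were lower, with a median of -1.60. The list was drawn up after values were seen, so leaving these members out does not make its direction independent. Its members were measured in the same 6 libraries and do not count as replicates. None passed the adjusted threshold in either fit, and 15 had an unadjusted p under 0.05 with the replicate block, against 2.98% of all genes. The summed normalised count of the list was 1480, 1910 and 1530 in HMS-I1 replicates 1, 2 and 3, against 2150, 8330 and 9500 in MTX.

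Gbp8, a guanylate-binding protein gene, had normalised counts of 4.89, 6.48 and 2.61 in HMS-I1, against 18.5, 48.2 and 38.8 in MTX. Every HMS-I1 library was below every MTX library, and the log2 difference was -2.63 with a standard error (SE) of 0.60. Gbp2 had 71.3, 137 and 131 in HMS-I1, against 98.8, 861 and 1290 in MTX, with a log2 difference of -2.13 (SE 1.18). The groups did not overlap for Gbp8, but for Gbp2 the MTX replicate 1 library lay among the HMS-I1 libraries. Gbp3 averaged 96.7 ± 44.4 in HMS-I1 and 312 ± 155 in MTX (SD, n = 3 each), and Gbp6 averaged 76.2 ± 22 in HMS-I1 and 335 ± 180 in MTX (SD, n = 3 each). The log2 differences were -1.61 for Gbp3 and -1.96 for Gbp6. Gbp7 had a smaller log2 difference of -1.21, with 160, 254 and 80.3 in HMS-I1, against 222, 623 and 294 in MTX. Each of these genes had an adjusted p of 1 in limma.

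Among the immunity-related GTPases, which act on parasite vacuoles together with the GBPs, Gm12250 had 0, 6.95 and 15.8 in HMS-I1, against 14.5, 47.7 and 142 in MTX. Its groups overlapped by a single pair of libraries, with HMS-I1 replicate 3 just above MTX replicate 1. Ifi47 had 17.4, 33.7 and 77.7 in HMS-I1, against 53.3, 103 and 497 in MTX. Igtp had 48.6, 42.7 and 85.6 in HMS-I1, against 51.9, 175 and 581 in MTX. Igtp was thus nearly level in the first pair and furthest apart in the third. Irgm1, which regulates the other members of the family, had 75.7, 138 and 193 in HMS-I1, against 120, 330 and 946 in MTX. The log2 differences were -3.22 for Gm12250, -1.94 for Ifi47, -1.62 for Igtp and -1.40 for Irgm1. Gm4070, a gene of the very large inducible GTPase family, had 66.2, 84.0 and 34.5 in HMS-I1, against 245, 582 and 194 in MTX, with no overlap. GTPase genes of this family have close copies, among which read assignment can be uncertain.

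**Figure D1:**
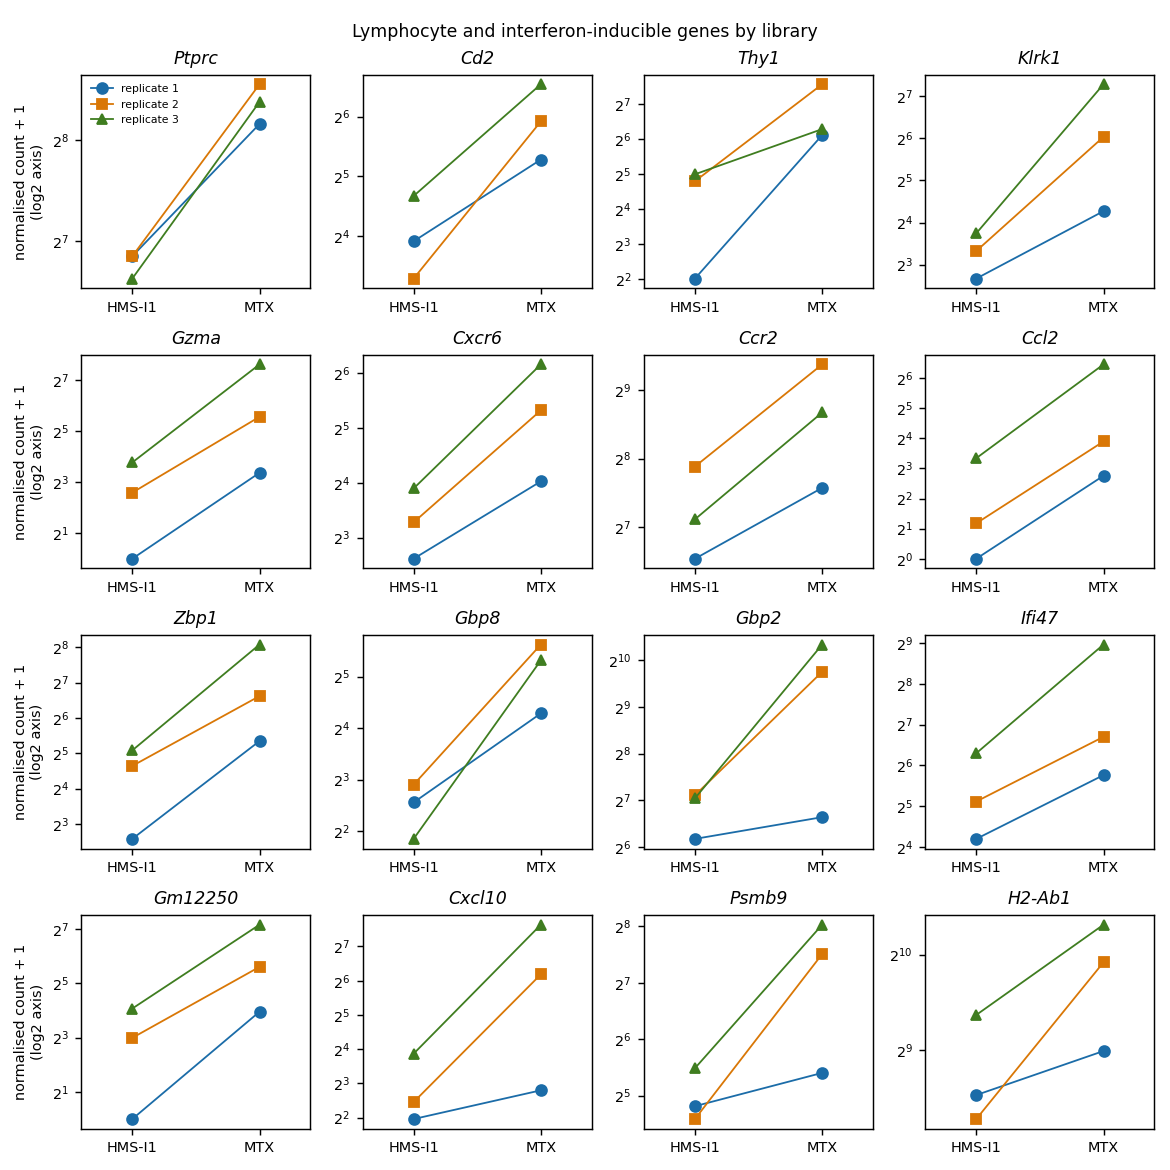
Normalised count plus 1 on a log2 axis for 16 lymphocyte and interferon-inducible genes, with HMS-I1 left of MTX. Each line joins the libraries of one replicate number. All lines run upward to MTX, and for Gbp2 and Cxcl10 the replicate 1 line rises less than the other lines.

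The chemokines and sensors listed as interferon-gamma induced showed the same direction. The names of this list and of the GTPase list describe known inducibility, and the part of any interferon in these differences was not tested. Of 19 tested, 18 had a lower fitted value in HMS-I1, with a median log2 difference of -1.19, and 16 were lower in all 3 pairs. The 15 members not among the 55 genes above had a median of -0.94. Cxcl9 and Cxcl10 encode ligands of CXCR3, the receptor that draws activated T and NK cells. Cxcl9 had 25.4, 48.2 and 42.5 in HMS-I1, against 30.6, 994 and 1380 in MTX. Cxcl10 had 2.89, 4.48 and 13.6 in HMS-I1, against 5.96, 71.8 and 198 in MTX. For both chemokines the distance lay mostly in replicates 2 and 3, and the interaction with replicate number was not called for either gene.

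Zbp1, a sensor of Z-form nucleic acid that can trigger necroptosis, had 4.98, 24.0 and 32.9 in HMS-I1, against 39.7, 97.3 and 269 in MTX. Every HMS-I1 library was below every MTX library, with a log2 difference of -2.58 (SE 0.98) and an unadjusted p of 0.0209 that became 0.000402 with the replicate block. Casp1, the inflammasome protease, had 108, 58.3 and 50.4 in HMS-I1, against 162, 115 and 138 in MTX. The log2 difference for Casp1 was -1.0 (SE 0.38), with no overlap between the groups. Acod1, which makes itaconate in activated macrophages, was near the detection limit in HMS-I1 with 0, 0.629 and 4.06, against 7.94, 16.7 and 33.9 in MTX.

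Antigen processing genes followed with smaller distances. Of 20 tested, 19 had a lower fitted value in HMS-I1, with a median of -0.75 and pair medians of -0.18, -1.0 and -1.06, and 15 were lower in all 3 pairs. The median was -1.24 without MTX replicate 1 and -0.24 without MTX replicate 3. These fits had no replicate block, so leaving out a library unbalances the replicate numbers. The shift then also holds differences between replicates, as it does for every value given below without a library. Psmb9, a subunit of the immunoproteasome that cuts peptides for MHC class I, had 27.1, 23.0 and 43.8 in HMS-I1, against 41.3, 181 and 260 in MTX. Tap1, part of the pump that moves those peptides into the endoplasmic reticulum, had 33.1, 46.7 and 116 in HMS-I1, against 37.8, 109 and 404 in MTX. H2-Ab1, an MHC class II chain, had 369, 310 and 660 in HMS-I1, against 508, 967 and 1270 in MTX. B2m, the light chain of MHC class I, had 1220, 3360 and 2610 in HMS-I1, against 1630, 6550 and 6400 in MTX. All of these genes were lower in each pair, and for each the groups overlapped. An earlier list of general interferon response genes, which includes many type I interferon targets, had 21 of 23 members lower, a median of -0.62 and 14 members lower in all 3 pairs, and its median was -0.34 without HMS-I1 replicate 1 and -0.15 without MTX replicate 3.

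Genes of T and NK cells were lower in HMS-I1 as well. Of 24 tested genes of the T cell receptor and co-receptor complex, 23 had a lower fitted value, with a median log2 difference of -1.18 and 15 lower in all 3 pairs. The pair medians were -0.44, -1.31 and -1.68, and the fitted median was -1.80 without MTX replicate 1 and -0.67 over the 8 members with a mean of at least 50. With the 7 members among the 55 genes above left out, the remaining 17 had a median of -0.98. Cd2, an adhesion receptor of T and NK cells, had 14, 8.72 and 24.4 in HMS-I1, against 37.8, 59.5 and 92.2 in MTX, with a log2 difference of -1.96 (SE 0.63). Cd8a, the co-receptor of cytotoxic T cells, had 5.2, 2.31 and 4.65 in HMS-I1, against 9.05, 28.9 and 40.4 in MTX. Cd28, the costimulatory receptor, had 2.13, 13.5 and 8.73 in HMS-I1, against 16.6, 25.1 and 34.9 in MTX. Neither Cd2, Cd8a nor Cd28 overlapped between the groups. Thy1 had 3.06, 26.8 and 30.9 in HMS-I1, against 68.2, 188 and 76.9 in MTX, also with no overlap. In bulk tissue, fewer cells of a type and less RNA per cell cannot be told apart.

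The chains of the CD3 complex, which transmit the T cell receptor signal, were less uniform. Cd3d was the one member with a higher fitted value, with 256, 49.5 and 98.6 in HMS-I1, against 107, 44.2 and 142 in MTX. Cd3e had 7.48, 48.2 and 37.7 in HMS-I1, against 10.3, 81.9 and 63.4 in MTX. Cd4, the co-receptor of helper T cells, had 15, 26.4 and 58.9 in HMS-I1, against 23.2, 99.2 and 99.2 in MTX. Both Cd3e and Cd4 were lower in each pair, while the libraries of the groups overlapped. Of the 28 genes listed for this complex, 4 averaged under 10 normalised counts and were not tested, among them Ctla4 and Cd5.

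NK receptor genes had a median log2 difference of -1.63 over 16 tested genes, of which 15 had a lower fitted value and 10 were lower in all 3 pairs. The pair medians were -0.05, -2.13 and -2.01, and the fitted median was -1.04 without MTX replicate 3. With the 4 members among the 55 genes above left out, the remaining 12 had a median of -1.12. Of the 26 listed receptors, 25 were among the deposited genes, and 9 of these were below the minimum of 10. Klrb1 was the only tested receptor with a mean of at least 50 over all libraries, and the mean of the others was at most 41, so most of them passed the filter through the libraries in which they were high. The filter takes all 15 libraries together and can favour a lower value in a group where such genes are scarce, and the same holds for the scarce T cell and cytotoxic genes. Over all listed members with a mean above 0, the medians were -1.46 for the T cell list, -1.63 for the NK list and -1.38 for the cytotoxic list. Klrk1, which encodes the activating receptor NKG2D, had 5.36, 9.01 and 12.4 in HMS-I1, against 18.3, 64.6 and 155 in MTX. Its groups did not overlap, and the log2 difference was -2.62 (SE 1.17). Klrd1, the CD94 partner of the NKG2 receptors, had 0, 3.47 and 10.7 in HMS-I1, against 8.74, 24.2 and 67.9 in MTX. Ncr1, the NK receptor NKp46, had 5.43, 2.43 and 3.74 in HMS-I1, against 5.70, 25.5 and 37.0 in MTX, so that the first pair was level.

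The effector genes of killer lymphocytes had a median of -1.50 over 16 tested genes, with 15 lower and 11 lower in all 3 pairs. Gzma, a granule protease, had 0, 5.03 and 12.7 in HMS-I1, against 9.35, 46.4 and 196 in MTX. The log2 difference was -3.40 (SE 1.44), and HMS-I1 replicate 3 lay above MTX replicate 1. Cxcr6, a homing receptor of tissue-resident lymphocytes, had 5.13, 8.71 and 13.9 in HMS-I1, against 15.3, 39.0 and 70.5 in MTX, with no overlap. Xcl1, a chemokine that T and NK cells secrete, had 6.56, 0.466 and 2.22 in HMS-I1, against 17.8, 17.3 and 22.9 in MTX. Cd69, an early marker of activation, had 7.24, 4.76 and 5.58 in HMS-I1, against 23.9, 15.2 and 26.5 in MTX. Neither Xcl1 nor Cd69 overlapped between the groups, and neither had its highest HMS-I1 value in replicate 3. The list median was -0.68 without MTX replicate 3, and -1.2 over the 11 members not among the 55 genes above. The genes for interferon gamma itself (Ifng) and perforin (Prf1) were under the expression minimum and were not tested.

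Genes shared by most leukocytes had a median of -0.57 over 20 tested members, of which 16 were lower. With a library left out it ranged from -1.06, without MTX replicate 1, to -0.42. The 17 members not among the 55 genes above had a median of -0.46. Ptprc, which encodes the CD45 phosphatase found on all leukocytes, had 114, 114 and 97.6 in HMS-I1, against 285, 375 and 332 in MTX. The HMS-I1 libraries lay within a narrow range below all MTX libraries, and the log2 difference was -1.59 (SE 0.53). Lair1, an inhibitory collagen receptor, had 108, 146 and 178 in HMS-I1, against 208, 327 and 372 in MTX, likewise with no overlap. Chemokine genes of monocytes had a median of -0.81, with 11 of 12 lower and 8 lower in all 3 pairs. That median was -0.47 without HMS-I1 replicate 1, -1.31 without MTX replicate 1 and -0.34 without MTX replicate 3. With the 4 members among the 55 genes above left out, the remaining 8 had a median of -0.35. Ccr2, the receptor that brings monocytes into tissue, had 91.4, 235 and 137 in HMS-I1, against 189, 666 and 408 in MTX. Its ligand gene Ccl2 had 0, 1.26 and 9.13 in HMS-I1, against 5.76, 13.9 and 86.9 in MTX. For Ccr2 and Ccl2 the groups overlapped.

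The macrophage and general leukocyte list had a median of -0.20, with 15 of 21 members lower, and became 0.02 without HMS-I1 replicate 1 and 0.04 without MTX replicate 3. Its summed level was 7510, 9870 and 15200 in HMS-I1, against 9570, 14100 and 20400 in MTX. Adgre1, the macrophage marker F4/80, had 256, 191 and 449 in HMS-I1, against 243, 191 and 287 in MTX. Csf1r, the growth factor receptor that macrophages need, had 573, 595 and 721 in HMS-I1, against 711, 247 and 382 in MTX. Adgre1 and Csf1r were among the 6 members with a higher fitted value, against the direction of most of the list. Ptprc, H2-Ab1 and H2-Aa, also on this list, had log2 differences of -1.59, -1.02 and -1.03. B cell genes had 8 of 8 tested members lower with a median of -0.63, but the replicate 3 pair had a median of 0.06, and the fitted median was -0.32 without MTX replicate 2 and -0.98 without MTX replicate 3. The difference between these lists was not tested.

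**Figure D2:**
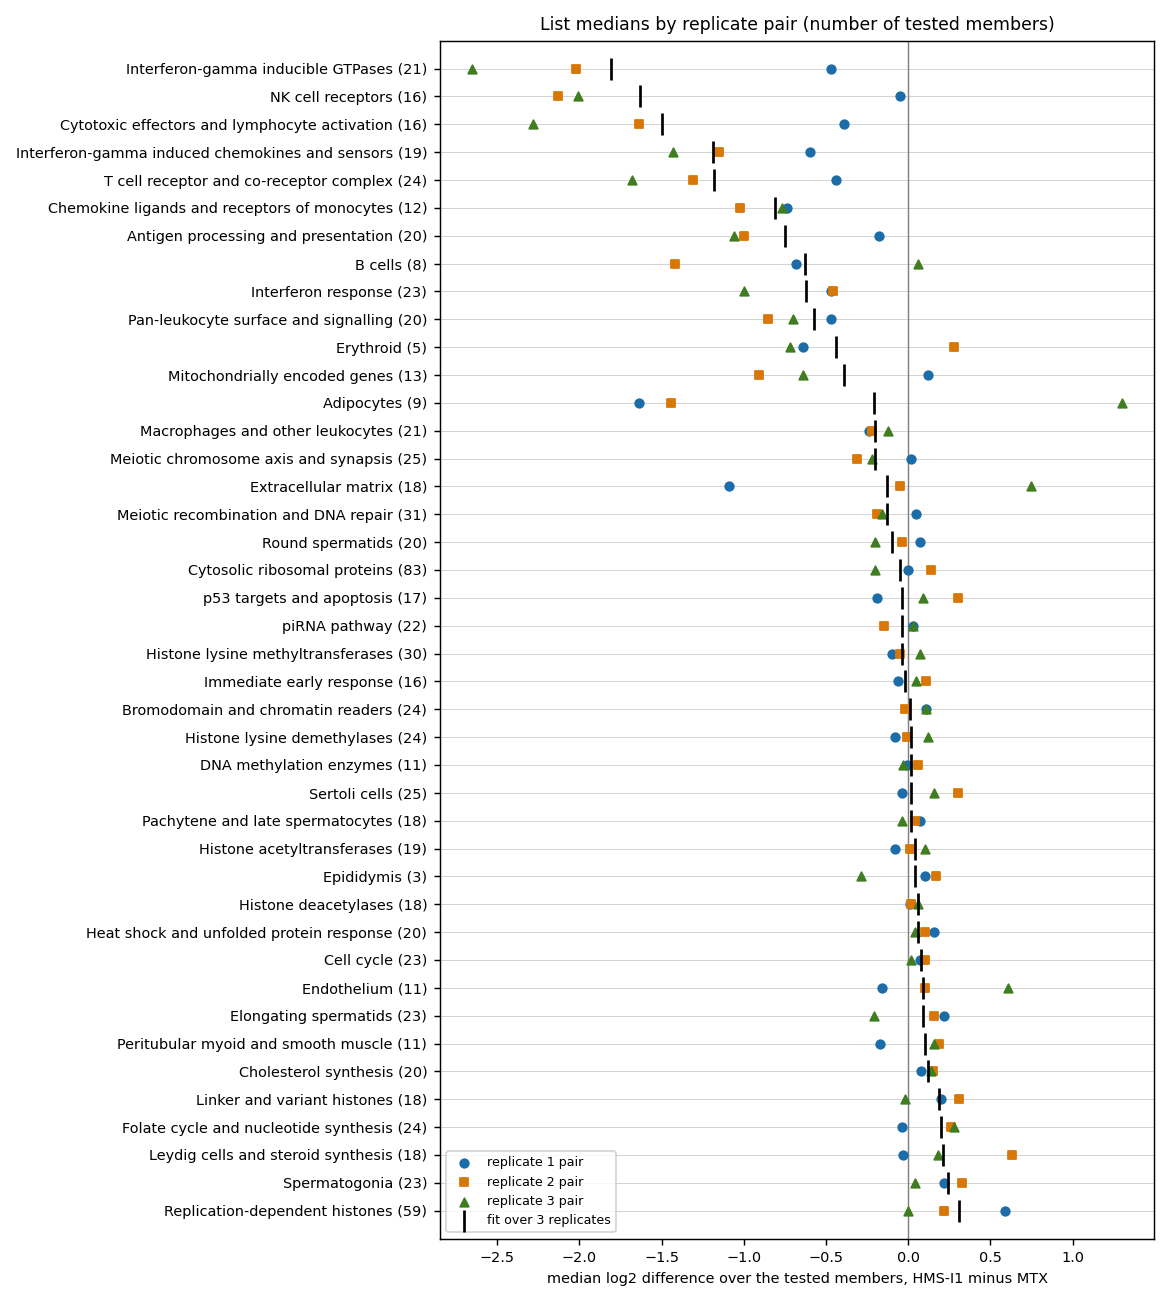
Median log2 difference, HMS-I1 minus MTX, over the tested members of 42 gene lists, with points for the replicate pairs and a black bar for the fit over all 3 replicates. The immune and interferon lists at the top have bars left of 0, down to -1.81. The bars of the germ cell and chromatin lists lie between -0.20 and 0.24.

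The pair differences of replicates 2 and 3 placed the lymphocyte and interferon genes together at the low end of both axes, while the replicate 1 pair spread them around smaller values. An interaction of the HMS-I1 to MTX difference with replicate 1 against replicates 2 and 3 was called for 1 gene of 17896 (0.00559%), the X-linked gene Gm10096, and for no gene of these lists.

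**Figure D3:**
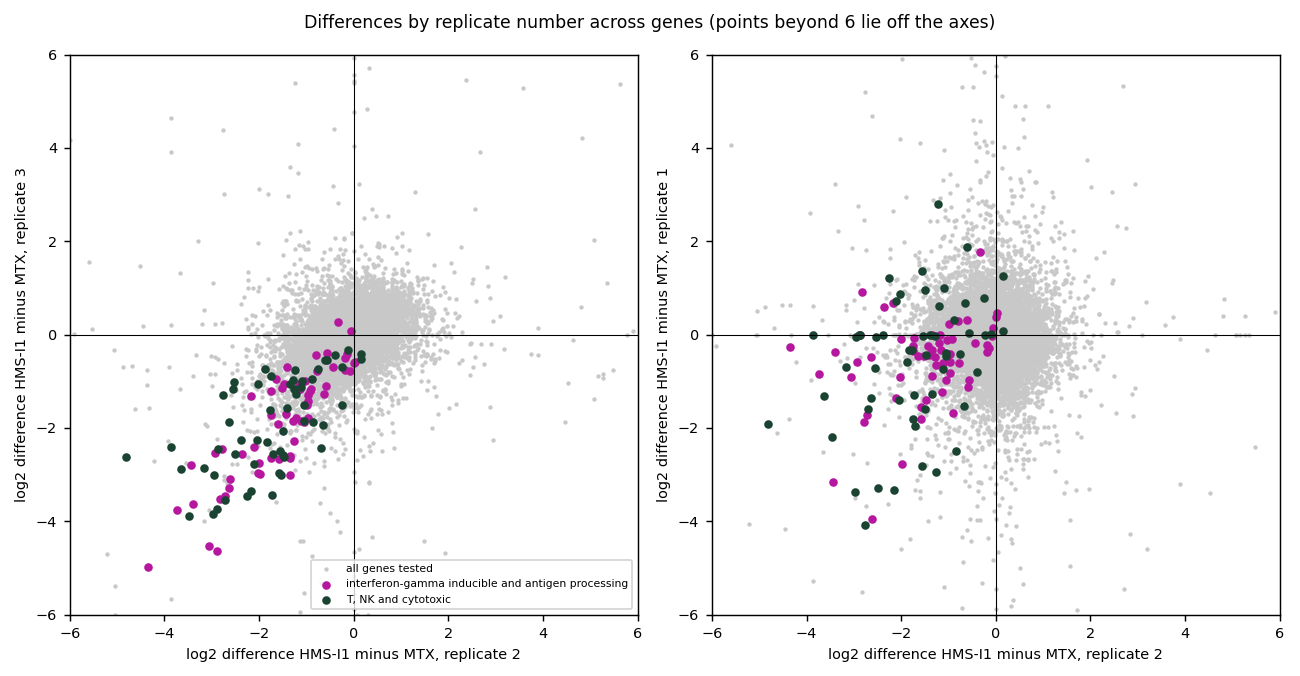
Log2 difference, HMS-I1 minus MTX, for each gene in the replicate 3 pair (left) and the replicate 1 pair (right) against the replicate 2 pair. Grey points are all tested genes, magenta points interferon-gamma inducible and antigen processing genes and dark green points T cell, NK cell and cytotoxic genes; the coloured points sit at the lower left in the left panel and spread upward in the right one.

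Across all groups, the position of HMS-I1 and MTX on these lists can be read from the mean log2 level in each library. For the GTPase list it was 5.16, 5.72 and 5.44 in HMS-I1, 5.91, 7.79 and 8.14 in MTX, 6.30, 7.35 and 8.79 in AA, 5.05, 8.27 and 6.43 in TSA, and 6.02, 6.23 and 6.73 in Control. HMS-I1 replicates 2 and 3 were the lowest of their number in any group, and the Control libraries of those numbers lay between HMS-I1 and MTX. Control replicate 2 shares the low mitochondrial share (1.4%) and high histone level (8.68) of the first replicates, so its number does not pair it with the other second replicates. For the T cell list the mean level was 3.65, 3.96 and 4.31 in HMS-I1, 4.38, 5.39 and 6.03 in MTX, 3.53, 4.98 and 5.72 in AA, 3.74, 5.55 and 4.50 in TSA, and 3.98, 4.06 and 4.71 in Control. For the NK list HMS-I1 replicates had 2.51, 2.71 and 3.60, MTX had 3.08, 4.84 and 5.63, AA had 2.72, 4.34 and 5.50, TSA had 2.73, 4.86 and 3.49, and Control had 2.58, 2.73 and 3.83. On the GTPase list AA replicate 3 and TSA replicate 2 were as high as or higher than MTX replicates 2 and 3. No gene was called between HMS-I1 and Control either (0 of 17896, with 73 at an unadjusted p under 0.05), nor between MTX and Control (0, with 98).

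**Figure D4:**
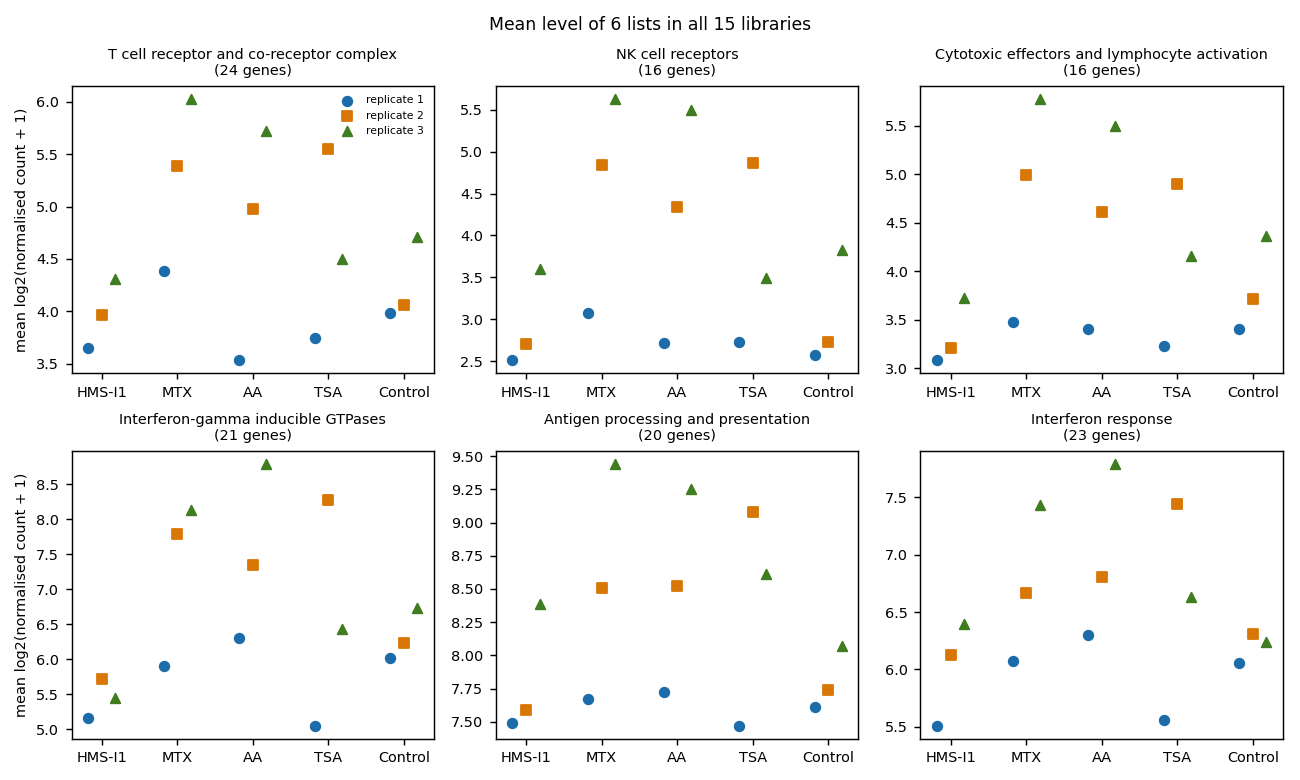
Mean of log2(normalised count + 1) over the tested members of 6 lists in all 15 libraries, by group from HMS-I1 to Control, with a marker for each replicate number. For the GTPases, HMS-I1 libraries span 5.16 to 5.72 and MTX libraries 5.91 to 8.14, and the first replicate is the lowest library of each group.

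Single genes followed this order in part. Gbp2 had 71.3, 137 and 131 in HMS-I1 and 98.8, 861 and 1290 in MTX, beside 157, 400 and 1760 in AA, 52.9, 1260 and 373 in TSA, and 90.8, 128 and 301 in Control. Klrk1 had 8.22, 43.7 and 155 in AA, 10.4, 75.5 and 29.5 in TSA, and 2.24, 1.25 and 25.6 in Control. Ptprc had 232, 292 and 813 in AA, 137, 538 and 126 in TSA, and 293, 225 and 189 in Control. For Gbp2 the Control replicate 2 value lay just below that of HMS-I1 replicate 2, and for Klrk1 Control replicates 1 and 2 lay below HMS-I1 replicates 1 and 2. The HMS-I1 values of Ptprc, 97.6 to 114, lay below every library of the other groups.

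Germ cell lists had medians between -0.20 and 0.24, against -0.01 over all genes. Spermatogonial genes had a median log2 difference of 0.24, with 17 of 23 higher in HMS-I1, and of 0.15, 0.12 and 0.07 without HMS-I1 replicate 2, HMS-I1 replicate 3 and MTX replicate 1. Uchl1, a deubiquitinase of undifferentiated spermatogonia, had 1120, 1000 and 1790 in HMS-I1, against 765, 576 and 1500 in MTX. Genes of the meiotic chromosome axis and synapsis had a median of -0.20, with 20 of 25 lower, and recombination genes a median of -0.13, with 20 of 31 lower. Without MTX replicate 2 these medians were 0.05 and 0.03, and without HMS-I1 replicate 3 the axis median was 0.04. Msh4, which stabilises crossover intermediates, had 753, 782 and 557 in HMS-I1, against 881, 1100 and 771 in MTX. Terb2, which ties meiotic telomeres to the nuclear envelope, had 359, 403 and 254 in HMS-I1, against 312, 574 and 413 in MTX. Lists of pachytene spermatocytes, round spermatids and elongating spermatids had medians of 0.02, -0.10 and 0.09, each of which reached 0 or turned its sign without one of the libraries. Tnp2, a transition protein that replaces histones in spermatids, had 71800, 83900 and 54400 in HMS-I1, against 33600, 55800 and 52900 in MTX. For all of these germ cell genes the adjusted p was 1.

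Chromatin enzymes showed no shared direction. List medians were -0.04 for histone lysine methyltransferases, 0.02 for demethylases, 0.04 for acetyltransferases, 0.06 for deacetylases, 0.01 for bromodomain and other readers and 0.02 for DNA methylation enzymes, and none of these signs was kept in every alternative. Kmt2d, a histone H3 lysine methyltransferase of enhancers, had 336, 1160 and 1020 in HMS-I1, against 1440, 1210 and 1030 in MTX, so its distance came from the first pair. Hdac7, a class IIa deacetylase, had 123, 115 and 159 in HMS-I1, against 81.6, 94.5 and 83.0 in MTX, with no overlap. Ehmt1 had 540, 457 and 353 in HMS-I1, against 391, 380 and 267 in MTX, higher in each pair.

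Folate cycle and nucleotide synthesis genes had a median of 0.20, with 20 of 24 higher, and pair medians of -0.04, 0.26 and 0.28, and the fitted median was 0.00 without MTX replicate 2. Mtrr, which reactivates methionine synthase, had 509, 312 and 391 in HMS-I1, against 275, 280 and 363 in MTX. Shmt2, the mitochondrial serine hydroxymethyltransferase, had 174, 281 and 381 in HMS-I1, against 150, 168 and 310 in MTX. Cholesterol synthesis genes had a median of 0.12, with 14 of 20 higher, and of 0.05 without HMS-I1 replicate 2 and 0.04 without MTX replicate 1. Lss, lanosterol synthase, had 581, 485 and 490 in HMS-I1, against 439, 394 and 325 in MTX, with no overlap.

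Steroid-producing Leydig cell genes had a median of 0.21, with 13 of 18 higher in HMS-I1, and pair medians of -0.03, 0.63 and 0.18. With a library left out it ranged from 0.13 without MTX replicate 2 to 0.41 without HMS-I1 replicate 1. Hsd3b1, which makes progesterone and androstenedione from their precursors, had 4080, 7230 and 8530 in HMS-I1, against 4670, 3420 and 5210 in MTX. Sertoli cell genes had a median of 0.02 over 25 genes and pair medians of -0.04, 0.30 and 0.16, and the fitted median ranged from -0.08 without HMS-I1 replicate 3 to 0.41 without HMS-I1 replicate 1. Inha, the inhibin alpha chain of Sertoli cells, had 1470, 1330 and 2640 in HMS-I1, against 1450, 525 and 1770 in MTX. Extracellular matrix genes had pair medians of -1.09, -0.05 and 0.75, and adipocyte genes of -1.64, -1.44 and 1.30, so neither list kept one direction. All 13 mitochondrially encoded genes had a lower fitted value in HMS-I1, with pair medians of 0.12, -0.91 and -0.64, and a fitted median of -0.39 that became 0.67 without HMS-I1 replicate 1 and 0.96 without MTX replicate 2. Of 59 tested replication-dependent histone genes, 47 were higher, with pair medians of 0.59, 0.22 and 0.00, and the fitted median of 0.31 became -1.45 without HMS-I1 replicate 1, -0.68 without MTX replicate 2 and -0.32 without MTX replicate 3. Whether these library-wide features take part in the immune gene differences was not tested.

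Apart from the 5 genes named next, the higher genes described in this paragraph had fitted log2 differences of at most 1.25. The 5 genes that were higher by at least 1 in every pair were Ngb, Abcg4, Hist1h4j, Gm21920 and Gm37325, of which 1 averaged at least 50 normalised counts. Pcnx3, a multipass membrane protein gene, had 784, 744 and 893 in HMS-I1, against 577, 358 and 591 in MTX, with no overlap and a log2 difference of 0.70 (SE 0.22). Hinfp, the transcription factor that drives histone H4 genes, had 563, 453 and 501 in HMS-I1, against 315, 330 and 311 in MTX. Fndc4 had 77.4, 81.3 and 75.7 in HMS-I1, against 31.8, 20.4 and 51.8 in MTX. The HMS-I1 libraries of Fndc4 and of Hinfp all lay above the MTX libraries, with log2 differences of 1.25 and 0.66. Axin2, a feedback inhibitor and common readout of WNT signalling, had 108, 135 and 150 in HMS-I1, against 43.2, 77.1 and 79.1 in MTX. Trp53, which encodes p53, had 212, 496 and 676 in HMS-I1, against 121, 315 and 438 in MTX, higher in each pair with overlapping groups. The list of p53 targets had a median of -0.04, and of 0.06 with quantile normalisation. Mapt, Cdh3, Robo4, Il17rb, Phf21b and Rnf144a were likewise higher in each pair, by 0.57 to 1.18 in the fit. One sign in all pairs was a condition for naming them.

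Genes outside the immune lists that were lower in HMS-I1 included Nin, which encodes a centrosomal anchor of microtubules, with 44.3, 133 and 62.7 in HMS-I1, against 360, 405 and 109 in MTX. Synpo2, an actin-bundling protein of smooth muscle, had 49.3, 63.6 and 70.3 in HMS-I1, against 103, 124 and 95.3 in MTX. Vcan, the matrix proteoglycan versican, had 44.0, 65.9 and 53.9 in HMS-I1, against 107, 86.4 and 91.7 in MTX. The groups did not overlap for Synpo2 or Vcan, whose log2 differences were -0.81 and -0.80. Ryr3, a calcium release channel, had 154, 98.2 and 69.4 in HMS-I1, against 578, 205 and 104 in MTX, with the widest gap in the first pair. Fh1, the fumarase of the citric acid cycle, had 1100, 1080 and 898 in HMS-I1, against 1450, 1610 and 1280 in MTX, with no overlap. Zfp28 and Zfp808, zinc finger genes, had log2 differences of -0.69 and -1.10. The adjusted p was 1 for each of these genes, and at least 0.989 with the replicate block.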

How the data were processed

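RNA from whole testes was sequenced on an Illumina NovaSeq, per the labels' protocols. The submitters' processing notes name FastQC 0.11.9, Salmon 0.12.0, DESeq2 1.34.0 and the build GRCm39, with no roles. The deposited values are DESeq2-normalised counts per gene, used here as a non-negative signal rather than as raw counts; their sums ran from 27800000 to 40600000 per HMS-I1 or MTX library. Depth was approximated from the commonest low value. Symbols came from an annotation of GRCm38, so no gene coordinates are given apart from promoters.

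Values were analysed as log2(normalised count + 1) in R 4.3.3 with limma 3.58.1, using one fit over 5 groups with a variance trend, no covariate, and Benjamini-Hochberg adjustment at 0.05. Log2 differences understate changes of scarce genes. The test was run on simulated data with known changes. How often differences of the sizes described here would be called is not given. A second fit blocked on replicate number over the 12 treatment libraries. Numbers pair the libraries by the data and not by any label: deviations from group means correlated at 0.711, 0.756 and 0.678 in same-numbered HMS-I1 and MTX pairs and between -0.615 and -0.122 in the others.

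Genes were named by a rule: the smallest p-values in either fit and the largest smallest pair difference, at a mean of at least 50. These genes also had to have one sign in all 3 pairs. Up to 3 members per list were taken as well, beside genes that illustrate a role, chosen with values known. The comparison and 33 lists were chosen with earlier results of these data known, and 9 immune lists after their values were seen. Promoter sequences are RefSeq's. Alternatives changed the pseudocount, filter, normalisation, weights, block and libraries.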

Additional observations from a re-analysis of the deposited data

Results flagged for a closer look

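Gm10096, an X-linked predicted gene, had 212, 2110 and 1660 normalised counts in HMS-I1, against 0, 3810 and 2830 in MTX. Its HMS-I1 to MTX difference in replicate 1 exceeded that in replicates 2 and 3 by 8.55 on the log2 scale (SE 0.60, limma interaction, adjusted p = 0.045). Replicate 1 is here a single library per group, so the SE and the adjusted p hold no measured spread between first replicates. The MTX library of replicate 1 is listed at 0, so the size is set by the pseudocount and is no bound. With a pseudocount of 5 the gene was not called (adjusted p = 0.0528). Predicted genes of this kind have near-identical copies, and the part of read assignment in this value was not tested. The gene was the single one called of 17896 genes, and 510 genes had an unadjusted p under 0.05 for the same term.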

How the results depend on the processing

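Between HMS-I1 and MTX, limma called 0 genes with other pseudocounts, filters, normalisation, weights or sample sets, and 0 to 1 genes when one library was left out. The one call came without HMS-I1 replicate 3: Gm21704, which is listed at 0 in all MTX libraries. The fits with the replicate block gave 0 calls, so the pairing changed no call. The count for replicate 1 against replicates 2 and 3 was 1, and became 7 with a pseudocount of 0.5, 0 with a pseudocount of 5, 4 with quantile normalisation and 585 with no filter. The 55 genes lower by at least 1 in all pairs became 30 with a pseudocount of 5, 122 with no filter and 12 at a mean of at least 50, and 289, 115 and 141 without replicates 1, 2 and 3, where fewer pairs are compared. The 5 higher genes became 2, 28 and 1 under the same pseudocount and filters, 13 with quantile normalisation, and 49, 41 and 58 without replicates 1, 2 and 3. The cause was not tested.

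Among values for named genes under alternatives, 1483 kept their sign and 8 did not. Many of these genes were named on condition of one sign in all pairs, which favours a kept sign. Cd3d became -0.24 with array weights and -0.18 in replicates 2 and 3 with the block, an alternative chosen after seeing the data, as did Gm10096 with -0.81. With a library left out, Cd3d ranged from -0.32 to 0.85, Cd3e from -1.53 to 0.15, Adgre1 from -0.10 to 0.51 and Gm10096 from -1.86 to 4.09. The GTPase median stayed between -2.52 and -1.31 over 17 alternatives, the T cell median between -1.80 and -0.67, and the NK median between -2.33 and -1.04 with a library left out. At a mean of at least 50 the NK list holds 1 gene, Klrb1, with -0.06. Depth limits the first replicates, where scarce genes rest on a few reads.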

Other observations

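A few predicted genes were listed at 0 in every library of one group, and no fold is given for them. Gm21889 was listed at 0 in all HMS-I1 libraries, against 105, 51.4 and 77.3 normalised counts in MTX. Gm49391 was listed at 0 in HMS-I1, against 15.6, 36.4 and 25.1 in MTX. Gm21920 had 77.6, 48.4 and 40.1 in HMS-I1 and was listed at 0 in MTX. These genes were chosen after their values were seen, and near-identical copies make their assignment uncertain.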
